A study of Mus musculus with 12 samples.

Results

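Megakaryocyte and platelet genes were followed in G1E-ER4 cells, a mouse erythroblast line without a GATA1 of its own, in which a fusion of GATA1 with the estrogen receptor responds to estradiol and the cells then mature along the erythroid path. The genes were 7 of the 56748 in the count table, taken by symbol: Itga2b, Gp9, Gp1ba, Gp1bb, Pf4, Fli1 and Treml1. RNA-seq of poly(A) RNA was compared between 3 libraries of Sf3b1 K700E/+ cells and 3 libraries of Sf3b1 +/+ cells, all treated for 24 h with estradiol at 1e-07 M. In Sf3b1 K700E/+ cells 1 allele of the splicing factor Sf3b1 carries the K700E substitution, introduced with CRISPR-Cas9. Both lines came through the same hygromycin selection and removal of the cassette by flippase. Each genotype was 1 clone, so that a difference between genotypes and a difference between clones cannot be told apart. The libraries from before the addition of estradiol were not used here.

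Megakaryocytes release platelets into blood and share a progenitor with red cells. GATA1 acts in both lineages, and in megakaryocytes it works together with factors of the ETS family, of which FLI1 is the best known. The products of that program include the receptor for von Willebrand factor, built from GPIbα (Gp1ba), GPIbβ (Gp1bb), GPIX (Gp9) and GPV (Gp5), and the fibrinogen receptor, built from integrin αIIb (Itga2b) and integrin β3 (Itgb3). Platelet factor 4 (Pf4) is a chemokine stored in alpha granules, and Treml1 encodes a receptor kept in alpha granule membranes until platelets are activated. Itga2b is also expressed in early haematopoietic progenitors, and Itgb3 in several other cell types.

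The 3 genes of the von Willebrand factor receptor that belong to the set are shown by their promoters, because they form 1 complex and yet ranged from no read to the highest level of the set. The sequences are from RefSeq on GRCm38.p6, 5′ to 3′ on the strand of the gene, from 250 bases before to 50 bases after the start. Capitals mark the words searched on both strands, which for GATA factors were the word AGATAA, the word AGATAG, the word TGATAA and the word TGATAG, and for ETS factors the word CAGGAAG and the word CCGGAAG. The windows are chr6:87777820-87778119 (plus strand) for Gp9, chr11:70638872-70639171 (plus strand) for Gp1ba and chr16:18622354-18622653 (minus strand) for Gp1bb.
Gp9: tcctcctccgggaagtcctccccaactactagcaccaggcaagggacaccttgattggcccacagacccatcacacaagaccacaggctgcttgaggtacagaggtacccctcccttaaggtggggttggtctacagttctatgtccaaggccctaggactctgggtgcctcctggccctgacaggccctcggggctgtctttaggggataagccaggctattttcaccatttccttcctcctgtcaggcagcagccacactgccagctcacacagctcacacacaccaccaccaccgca
Gp1ba: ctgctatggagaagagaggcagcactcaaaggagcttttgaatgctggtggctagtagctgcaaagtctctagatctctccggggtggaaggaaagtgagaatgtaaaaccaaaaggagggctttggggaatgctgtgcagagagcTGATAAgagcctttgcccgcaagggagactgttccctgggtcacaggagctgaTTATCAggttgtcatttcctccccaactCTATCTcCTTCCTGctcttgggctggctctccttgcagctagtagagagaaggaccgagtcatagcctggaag
Gp1bb: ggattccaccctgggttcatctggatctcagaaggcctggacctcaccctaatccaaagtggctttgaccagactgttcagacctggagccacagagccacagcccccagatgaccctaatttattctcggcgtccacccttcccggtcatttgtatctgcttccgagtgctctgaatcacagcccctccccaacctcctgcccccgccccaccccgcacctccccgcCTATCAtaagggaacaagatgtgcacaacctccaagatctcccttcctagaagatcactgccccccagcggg

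The Gp1ba window held 3 GATA words, which began 104, 51 and 23 bases before the start, and 1 ETS word that began 16 bases before it. The Gp1bb window held 1 GATA word, and the Gp9 window held neither. None of these words overlapped another. By a sequence match described with the splicing events, reads of Gp9 events also came from inside its window, upstream of the start used here. Words further upstream of Gp9 were not searched. RefSeq promoters were matched for 6 of the 7 genes. Among the other 3, Pf4 had 1 GATA word, which began at base 37 after the start, and Itga2b and Treml1 had neither kind. Of 32851 mouse promoters of the same length, 29.8% held a GATA word, 20.9% an ETS word and 5.16% both. A match is a description of letters and shows no binding.

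Total counts ran from 44045337 to 50077827 in the Sf3b1 K700E/+ libraries and from 38785471 to 40702174 in the Sf3b1 +/+ libraries. Levels are given as CPM, counts relative to the library total scaled by TMM. Markers of erythroid cells, the labelled type of the line, were all found among the tested genes where the table held them (10 of 11). Their summed level was 8635 to 14469 CPM in Sf3b1 K700E/+ and 10713 to 15110 CPM in Sf3b1 +/+, with replicate 1 the lowest library of each genotype. Of 9 markers that define megakaryocytes and platelets, 3 had no read in any library, among them Gp1bb and Vwf, and the summed level of all 9 was 10.5 to 19.6 CPM against 17.6 to 29.0 CPM. Most of that sum was Gp9. The other 8 summed to 4.11 to 4.75 CPM against 4.58 to 5.83 CPM, which overlapped. Of all 9 markers, Gp9 included, 5 were tested and none passed. The expression of Sf3b1 itself was 741 to 765 CPM in Sf3b1 K700E/+ and 737 to 763 CPM in Sf3b1 +/+ (log2 fold change 0.01, SE 0.05). Gata1 counts cover the fusion transcript as far as its reads fall on the gene, and they are described with the transcription factors.

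The 7 genes fell into 3 classes by depth. Reads in all 6 libraries and a level that passed the filter on low counts were found for 4 of them (Gp9, Itga2b, Gp1ba and Pf4), Treml1 had 8 reads in all, and Gp1bb and Fli1 had none. Per kilobase of exon, where lengths allow genes to be compared, Gp9 stood apart from the other members. Its level was 13 CPM per kilobase in Sf3b1 K700E/+ and 22.5 in Sf3b1 +/+, higher than 67.4% and 79.4% of the 12267 tested genes with a known length. Pf4 followed with 0.812 and 1.10 CPM per kilobase. Gp1ba had 0.499 and 0.476, and Itga2b 0.413 and 0.482 CPM per kilobase, so that these 2 genes overlapped in both genotypes. Levels of Pf4 were higher than those of 19.9% and 22.5% of tested genes, and levels of Gp1ba and Itga2b were higher than those of 13.2% to 14.9%.

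**Figure D1:**
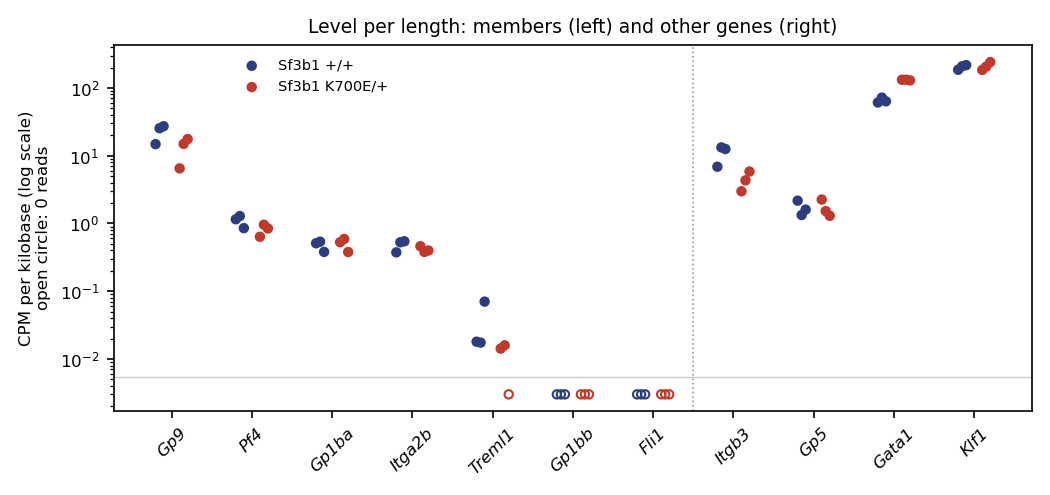
Level of each gene in CPM per kilobase of exon (log axis) in the 3 Sf3b1 +/+ libraries (blue) and the 3 Sf3b1 K700E/+ libraries (red), 1 point per library, with open circles below the line for libraries with 0 reads. Gp9 lies between 6.5 and 27.2 CPM per kilobase, the other tested members between 0.374 and 1.29, and Gp1bb and Fli1 have no read.

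No member passed the test between genotypes at a Benjamini-Hochberg (BH)-adjusted p under 0.05 in edgeR's quasi-likelihood fit, and the libraries of both genotypes overlapped for all 4 tested members. Of the 12547 genes tested, 44.4% passed, 21.3% being higher and 23.1% lower in Sf3b1 K700E/+, and the genotypes did not overlap for 54.3%. At an unadjusted p under 0.05, 1 member passed (Gp9), and 0 members passed at the adjusted threshold with DESeq2 or limma-voom. With the replicate number as a block, with no filter on low counts, or without replicate 1 of Sf3b1 +/+, 1 member passed (Gp9, lower). Genes with a log2 fold change over 1 in size as well (DEGs) made up 10.3% of those tested, and none was a member. The median log2 fold change of the 4 tested members was -0.33, against -0.01 over all tested genes.

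GPIX, the small subunit that the von Willebrand factor receptor needs to reach the cell surface, is encoded by Gp9 (ENSMUSG00000030054, chr6:87778072-87779768 on the plus strand of GRCm38 in GENCODE M21, 2 exon blocks). Its level was 5.72, 13.2 and 15.5 CPM in replicates 1, 2 and 3 of Sf3b1 K700E/+, and 13, 22.4 and 24 CPM in those of Sf3b1 +/+. Replicate 1 was the lowest library of each genotype, and the genotypes overlapped because replicates 2 and 3 of Sf3b1 K700E/+ lay above replicate 1 of Sf3b1 +/+. The mean was 11.5 ± 5.10 CPM against 19.8 ± 5.91 CPM (SD, n = 3 each), a log2 fold change of -0.80 (SE 0.34, 95% interval -1.56 to -0.03) that did not pass after adjustment over all genes (edgeR, BH-adjusted p = 0.0856).

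Within each replicate number Gp9 was lower in Sf3b1 K700E/+. The log2 ratio of Sf3b1 K700E/+ to Sf3b1 +/+ was -1.19 in replicate 1, -0.77 in replicate 2 and -0.63 in replicate 3. With the replicate number as a block, the fit gave a log2 fold change of -0.84 (SE 0.10, 95% interval -1.06 to -0.62), and Gp9 fell (edgeR, BH-adjusted p = 2.85e-05), 1 of the 4 tested members to do so. In that fit 29.2% of all tested genes were lower and 56.9% passed in either direction. Gp9 also passed without replicate 1 of Sf3b1 +/+ (log2 fold change -1.02, edgeR, BH-adjusted p = 0.0183) and with no filter on low counts (-0.78, BH-adjusted p = 0.0184), and it did not pass with any other library left out. Over the 6 fits without 1 library the log2 fold change ran from -1.07 to -0.46. Without replicate 1 of Sf3b1 K700E/+ its log2 fold change was -0.46, a change of over 1.5 times.

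The summed erythroid markers were also lowest in replicate 1 of each genotype, and their part in the Gp9 values was not tested. Fewer cells of a type and less RNA per cell cannot be told apart in these bulk libraries. By likeness over the 6 libraries, the genes nearest to Gp9 among 8770 with a mean of at least 5 CPM were Cdk10 (Pearson r of log2 CPM 0.999), Hbb-bs (0.997) and Gm10390 (0.994). Hbb-bs, an adult beta globin gene, was measured at 2650, 4728 and 5858 CPM in replicates 1 to 3 of Sf3b1 K700E/+ and at 4822, 7286 and 7638 CPM in those of Sf3b1 +/+. It thus had the order of libraries of Gp9, except that its replicate 1 of Sf3b1 +/+ lay between replicates 2 and 3 of Sf3b1 K700E/+. These correlations describe 6 libraries that share the genotype difference and the low replicate 1, and many genes were searched for them.

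**Figure D2:**
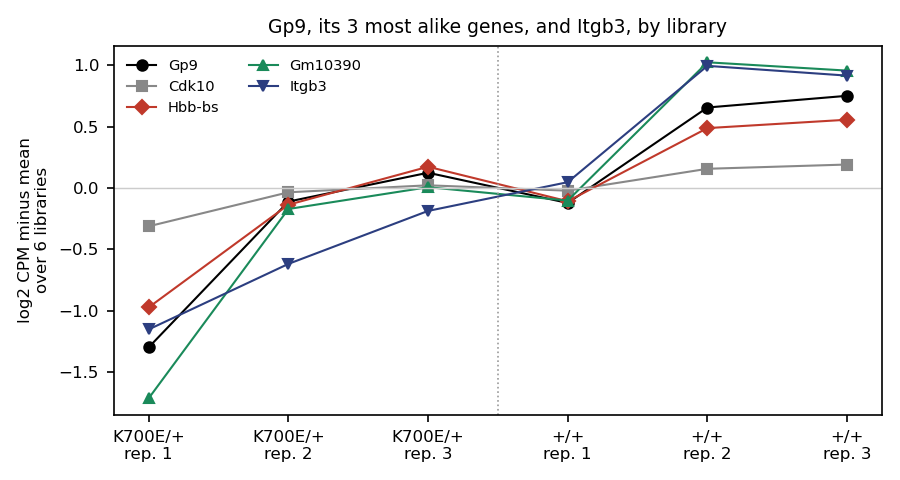
Log2 CPM of Gp9, of the 3 genes most like it and of Itgb3, each minus its own mean, in the 6 libraries after 24 h of estradiol (3 of Sf3b1 K700E/+ left of the dotted line, 3 of Sf3b1 +/+ right). Replicate 1 of Sf3b1 K700E/+ is the lowest library for all 5 genes, with Gp9 at -1.30 there and at 0.75 in replicate 3 of Sf3b1 +/+.

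The ligand-binding subunit GPIbα is encoded by Gp1ba (ENSMUSG00000050675, chr11:70639122-70642036, plus strand, GRCm38). It had 1.44, 1.6 and 1.03 CPM in replicates 1 to 3 of Sf3b1 K700E/+ and 1.39, 1.46 and 1.03 CPM in those of Sf3b1 +/+. Replicate 3 was the lowest library of each genotype and the ranges nearly coincided. The log2 fold change was 0.07 (SE 0.23, 95% interval -0.44 to 0.58, edgeR, BH-adjusted p = 0.825), and its sign turned without replicate 2 of Sf3b1 K700E/+ (-0.059) or replicate 3 of Sf3b1 +/+ (-0.068). The interval leaves room for a change in either direction, and it does not show equal levels.

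GPIbβ, which joins GPIbα by disulfide bonds, is encoded by Gp1bb (ENSMUSG00000050761, chr16:18620317-18622403, minus strand, GRCm38). Its count was 0 in all 6 libraries, for which 3 counts over a genotype would be 0.0218 CPM in Sf3b1 K700E/+ and 0.0247 CPM in Sf3b1 +/+. In GENCODE M21, 1938 of its 2087 exon bases (92.9%) lie on the same strand as exons of Sept5 or Gm49601, which leaves 149 bases of its own, and no other member shares an exon base with another gene. Those neighbours had no read in any library either, the former under its newer symbol Septin5. Reads in the shared bases cannot be assigned to Gp1bb alone, and the annotation behind the table is not given in the sources used here. GPV, the remaining subunit of the complex, is encoded by Gp5, which was no member. It had 4.95, 3.34 and 2.85 CPM in Sf3b1 K700E/+ and 4.76, 2.93 and 3.52 CPM in Sf3b1 +/+, overlapping throughout (log2 fold change -0.0033, SE 0.24, 95% interval -0.55 to 0.55). Its sign changed under several alternatives.

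Integrin αIIb is encoded by Itga2b (ENSMUSG00000034664, chr11:102453297-102470122, minus strand, GRCm38, 28 exon blocks). It had 2.51, 2.07 and 2.17 CPM in replicates 1 to 3 of Sf3b1 K700E/+ and 2.04, 2.88 and 2.98 CPM in those of Sf3b1 +/+. Replicate 1 was the highest library of Sf3b1 K700E/+ and the lowest of Sf3b1 +/+, so that the same-number log2 ratios were 0.30, -0.48 and -0.45. The log2 fold change was -0.22 (SE 0.19, 95% interval -0.64 to 0.20, edgeR, BH-adjusted p = 0.361).

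Its partner integrin β3 gave another picture. Itgb3, which was no member, had 17.6, 25.5 and 34.4 CPM in Sf3b1 K700E/+ and 40.5, 78.2 and 74.0 CPM in Sf3b1 +/+, and the genotypes did not overlap. It fell to 25.8 ± 8.42 CPM from 64.2 ± 20.6 CPM (SD, n = 3 each), with a log2 fold change of -1.32 (SE 0.28, edgeR, BH-adjusted p = 0.00440), and it passed under all 13 alternatives. Per kilobase of exon, Itgb3 had 4.38 CPM and Itga2b 0.413 CPM in Sf3b1 K700E/+, and 10.9 CPM and 0.482 CPM in Sf3b1 +/+. A test of the difference between the changes of Itga2b and Itgb3 was not made.

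**Figure D3:**
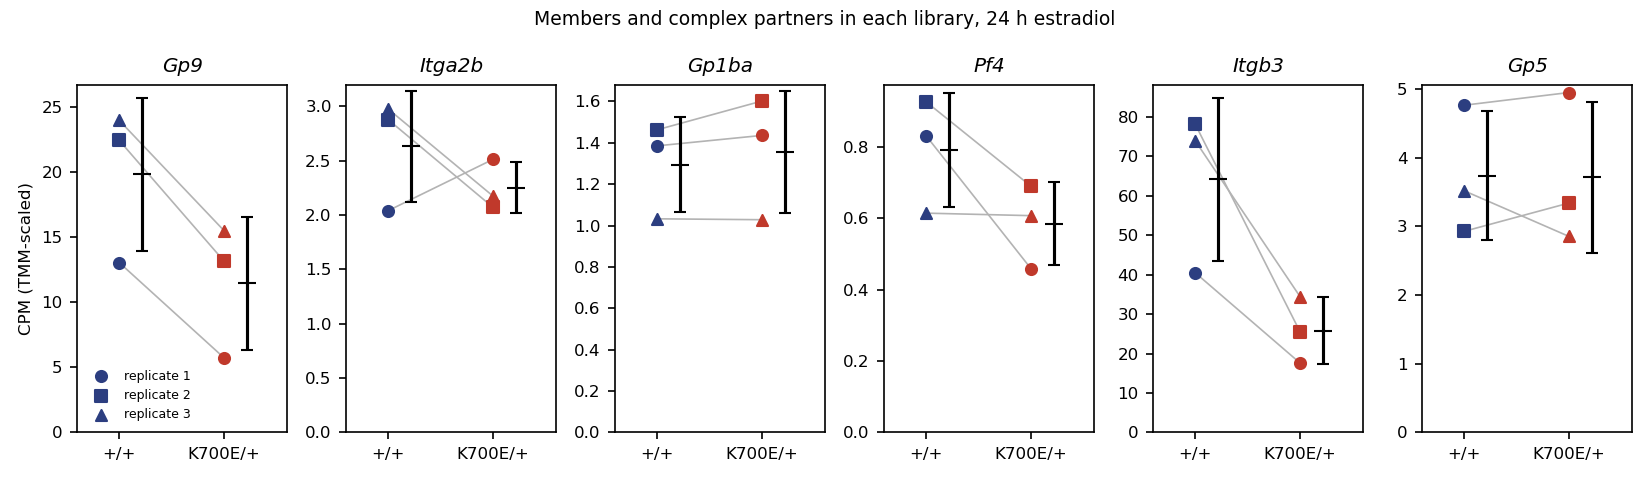
CPM of the 4 tested members and of 2 complex partners (Itgb3, Gp5) in each library, with Sf3b1 +/+ in blue and Sf3b1 K700E/+ in red, a symbol per replicate number, grey lines between same-numbered libraries and black bars for the mean ± SD (n = 3). The genotypes overlap for every member, and for Itgb3 the highest Sf3b1 K700E/+ library (34.4 CPM) lies below the lowest Sf3b1 +/+ library (40.5 CPM).

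Pf4 (ENSMUSG00000029373, chr5:90772435-90773383, plus strand, GRCm38) was read 23, 31 and 26 times in replicates 1 to 3 of Sf3b1 K700E/+ and 33, 38 and 25 times in those of Sf3b1 +/+. That corresponds to 0.459, 0.690 and 0.608 CPM against 0.831, 0.927 and 0.615 CPM, and replicate 3 was nearly equal in both genotypes. Its same-number log2 ratios were -0.86, -0.43 and -0.02. The log2 fold change was -0.44 (SE 0.25, 95% interval -1.01 to 0.13, edgeR, BH-adjusted p = 0.191), and the call was the same with the replicate block (BH-adjusted p = 0.144).

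Treml1 (ENSMUSG00000023993, chr17:48359916-48367176, plus strand, GRCm38) was read 1, 1 and 0 times in Sf3b1 K700E/+ and 1, 1 and 4 times in Sf3b1 +/+. Relative to library totals scaled by TMM, the ratio of 2 to 6 reads was 0.293, with an exact 95% counting interval of 0.0290 to 1.64. A difference was not detectable at this depth. FLI1, the ETS factor of the megakaryocyte program, is encoded by Fli1 (ENSMUSG00000016087, chr9:32422204-32542861, minus strand, GRCm38). It had 0 reads in all 6 libraries, under the same limits of 0.0218 and 0.0247 CPM for 3 counts over a genotype. These limits cover counting error only.

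**Figure D4:**
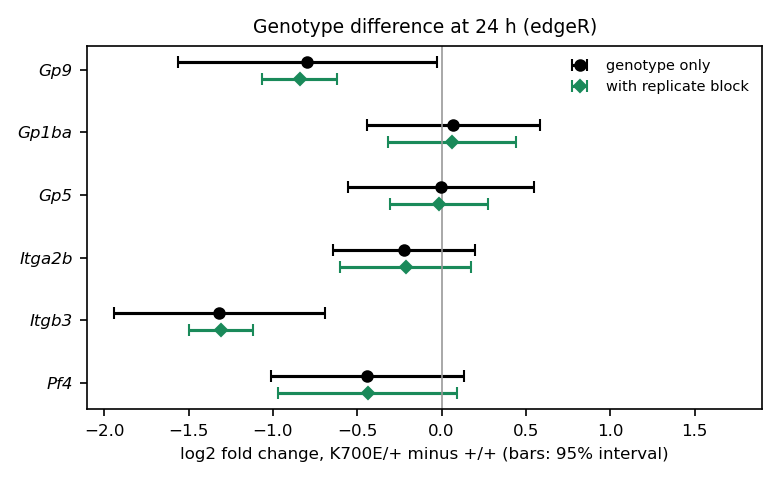
Log2 fold change (Sf3b1 K700E/+ minus Sf3b1 +/+) with 95% intervals for the tested members and for Gp5 and Itgb3, from the edgeR fit on genotype alone (black circles) and with the replicate number as a block (green diamonds). The interval of Gp9 narrows from -1.56 to -0.03 to -1.06 to -0.62 with the block, and those of Gp1ba, Gp5, Itga2b and Pf4 span 0 in both fits.

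The other tested members were also set beside the genes with the most similar pattern. Itga2b was nearest to Rsu1 (r = 0.990), Zup1 (0.987) and Itgav (0.981), Gp1ba to Ddx19b (0.986), Brms1l (0.982) and Cirbp (0.954), and Pf4 to Zfp512 (0.974), Pcbp1 (0.973) and Mtres1 (0.959), each over 6 libraries and 8771 genes. None of these 9 genes passed the test between genotypes, against 44.4% of all tested genes. They were chosen for likeness over the same libraries to members that did not pass, so this is no separate result. Of the genes nearest to Gp9, Gm10390 passed (log2 fold change -1.17, edgeR, BH-adjusted p = 0.0461), and Cdk10 and Hbb-bs did not. The correlations describe the 6 libraries and carry no test.

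Splicing was deposited as events with a longer and a shorter path, and PSI is the share of transcripts with the longer path. Of the 7 genes, 1 had events in the table, Gp9, with 2. The first was an event classed as intron retention at chr6:87754857-87755092 of GRCm39 with a variable part of 156 bases. In both events 1 splice site was counted as annotated, at 87755054, and the site at 87754897 was not. The 156 bases are thus not an intron of that annotation. In the printed Gp9 window, 156 bases that open with GT and close with AG end just before base 87778072 of GRCm38. That base is the start of the Gp9 gene model in GENCODE M21. By this match the 156 bases lie upstream of the gene model, and the site counted as annotated is its first base. Coordinates were not converted between the builds. The deposited PSI of this first event was 0.66, 0.65 and 0.62 in Sf3b1 K700E/+ and 0.72, 0.54 and 0.85 in Sf3b1 +/+. The Sf3b1 +/+ libraries thus spread on both sides of the others (difference -0.06, edgeR, BH-adjusted p = 0.823). The second was an alternative acceptor event at chr6:87754859-87755220 with a variable part of 128 bases. PSI was 1, 1 and 0.94 against 1, 0.88 and 0.88, on 1 and 8 reads of the shorter path in all (difference 0.06, edgeR, BH-adjusted p = 0.409). Neither was a differential splicing event (DSE, BH-adjusted p under 0.05 and a PSI difference over 0.10), and neither had an unadjusted p under 0.05. Of the 18114 events tested, 9.53% had a BH-adjusted p under 0.05 and 5.86% were DSEs.

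The wider pathway was read from 5 lists with 99 genes, written from textbook knowledge and including the members. Of these, 58 were tested, 22 had no read in any library and 19 had too few reads. Among the tested genes 11 rose (19%) and 21 fell (36.2%), against 21.3% and 23.1% of all genes tested, with a median log2 fold change of -0.18. Without the members, 11 of 54 rose and 21 fell, with a median of -0.16. With the replicate block, 16 of the 58 rose (27.6%) and 28 fell (48.3%), against 27.7% and 29.2% of all genes tested.

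Receptors were the least represented list. Of 19 genes 4 were tested, and those with no read included Clec1b and P2ry12, the latter an ADP receptor. P2ry1, an ADP receptor, fell from 35.8 ± 6.30 to 21.4 ± 1.68 CPM (log2 fold change -0.74, SE 0.13, edgeR, BH-adjusted p = 0.00136). P2rx1, Itgb1 and Gp6 did not pass, with log2 fold changes of 0.73, -0.04 and -0.15. P2rx1 was at 0.411 CPM against 0.250 CPM, and without replicate 1 of Sf3b1 +/+ its log2 fold change became 2.45 (BH-adjusted p = 0.00119).

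Of 22 granule genes 11 were tested. Among them 5 fell (45.5%) and 2 rose (18.2%), against 23.1% and 21.3% of all genes tested. With the replicate block 7 fell (63.6%) and 2 rose (18.2%), against 29.2% and 27.7%. Srgn, which encodes the granule proteoglycan serglycin, fell the most, from 3.58, 13.2 and 14.4 CPM in Sf3b1 +/+ to 0.0997, 0.111 and 0.0467 CPM in Sf3b1 K700E/+ (log2 fold change -6.86, SE 0.69, edgeR, BH-adjusted p = 6.64e-05). Srgn is expressed in many haematopoietic cells. The summed markers of granulocytes and macrophages, of which 2 of 8 were tested and 2 had no read (Elane and S100a8), were 0.0399 to 0.0668 CPM in Sf3b1 K700E/+ and 7.33 to 23.4 CPM in Sf3b1 +/+. Those of eosinophils (Prg2 and Epx) were 0.419 to 1.17 and 8.19 to 31.2 CPM. Those of mast cells and basophils, of which 1 of 2 tested was lower and Mcpt8 had no read, were 0.658 to 2.49 and 2.29 to 5.21 CPM and overlapped. The part of these cell types in the level of Srgn was not tested. Nbeal2, which is required for alpha granules, also fell (log2 fold change -0.62). In contrast, Hps5, of a complex that builds lysosome-related organelles, and Vps33b, of alpha granule formation, rose by 0.38 and 0.34. Hps1, Hps3 and Vipas39 of the same list fell (log2 fold changes -0.39, -0.41 and -0.27), and Hps4 and Hps6 did not pass. Vwf, Selp and Thbs1 had no read.

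Of 26 signalling and cytoskeleton genes 17 were tested, and 9 fell and 1 rose, which is 52.9% lower against 23.1% of all genes. With the replicate block 12 fell (70.6%) and 2 rose (11.8%), against 29.2% and 27.7% of all genes tested. Btk and Vav1, which act below platelet receptors, had log2 fold changes of -0.60 and -0.91 (edgeR, BH-adjusted p = 4.56e-05 and 0.000109). Diaph1, an actin nucleator, and Tln1, which encodes the integrin activator talin, had -0.61 and -0.55 and passed as well. Fyb, an adaptor in integrin activation, was the only DEG of this list, at 85.1 ± 11.6 CPM against 181 ± 46.6 CPM (log2 fold change -1.09). Most of these genes are used by other blood cells too.

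Among transcription factors more genes rose than fell. Of 26 genes 21 were tested, and 8 rose (38.1%) and 5 fell (23.8%), against 21.3% and 23.1% of all genes tested. The median log2 fold change was 0.15. With the replicate block 12 rose (57.1%) and 6 fell (28.6%), against 27.7% and 29.2%. Gata1, counted among the 8, was at 319.9 ± 4.14 CPM in Sf3b1 K700E/+ against 159.6 ± 14 CPM (log2 fold change 1.00, SE 0.07, edgeR, BH-adjusted p = 9.43e-06). The genotypes did not overlap. The line has no GATA1 of its own, and these reads cover the introduced fusion. The fusion may differ in level between the clones, which cannot be told apart from an effect of genotype. Zfpm1, which encodes the GATA1 partner FOG1, rose by 0.62 and Rbm15 by 0.93, while Lyl1 had -0.56. Mrtfa, a cofactor of SRF, was the other DEG of the list (log2 fold change -1.54, BH-adjusted p = 0.00138). Ets1 and Mef2c had no read, as Fli1 did.

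**Figure D5:**
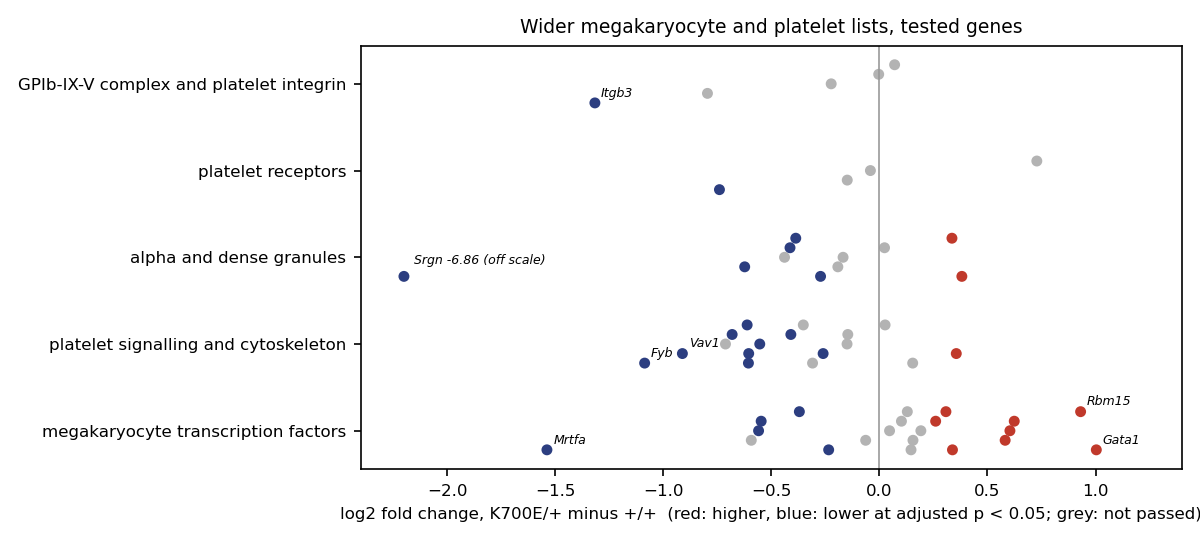
Log2 fold change (Sf3b1 K700E/+ minus Sf3b1 +/+) of each tested gene in the 5 lists, in red where it rose, blue where it fell and grey where it did not pass at a BH-adjusted p under 0.05, with genes beyond 0.9 in size named. Srgn (-6.86) is drawn at the left edge. In signalling and cytoskeleton 9 of 17 genes are blue, and among transcription factors 8 of 21 are red.

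Events in the listed genes numbered 104 among those tested, and 4 met the thresholds of a DSE (3.85%, against 5.86% of all events tested), in Itgb3, Fyb (2 events) and Hps5. The class of the Itgb3 event is not one of splicing, and whether its transcripts are spliced differently was not tested. In Itgb3 an event that the table classes as a deletion, with a variable part of 7 bases at chr11:104560853-104560939 of GRCm39, had a PSI of 0.683 ± 0.0115 in Sf3b1 K700E/+ and 0.1 ± 0.0173 in Sf3b1 +/+ (SD, n = 3 each, edgeR, BH-adjusted p = 9.10e-10). The exon skipping events of Fyb, with variable parts of 131 and 138 bases from the same start, had PSI of 0.280 against 0.530 and of 0.490 against 0.723. Each had 370 reads of the shorter path in Sf3b1 K700E/+, so they are not shown to be separate changes. In Hps5 an alternative acceptor with a variable part of 23 bases had a PSI of 0.513 ± 0.133 against 0.0167 ± 0.0289, on 61 and 2 reads of the longer path.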

How the data were processed

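Poly(A) RNA libraries of 3 Sf3b1 K700E/+ and 3 Sf3b1 +/+ samples were analysed, grouped by the labels. Nothing in the labels says that replicates were separate cultures, so the spread behind each p-value is that among these libraries and may be technical. The authors aligned reads with STAR 2.7.9 on GRCm39, per the labels, and deposited raw counts per gene. The annotation is not given in the sources used here. They also deposited packed read counts of KisSplice event paths (2 read files per library, summed here) and PSI as a fraction, which is their own value. DESeq2 1.30.1 is named for the authors' comparisons, and their fold changes and p-values were not used. No count column was without a sample.

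In R 4.3.3, edgeR 4.0.16 was run with filterByExpr (minimum count 10), TMM and the quasi-likelihood F test, and p was adjusted after Benjamini and Hochberg over 12547 genes. Where each library had 10 or more reads for an event, the coverage of both paths was fitted with terms for library, path and path by genotype. DESeq2 1.42.0 and limma-voom (limma 3.58.1), other normalizations and filters, a replicate block and each library left out were alternatives. The gene fit and the event fit were tested on simulated data. The simulated libraries were independent, with a fixed dispersion and no replicate effect. They therefore do not show how the fits behave with the replicate structure of these libraries. Exon lengths and overlaps came from GENCODE M21 (GRCm38), and 97.8% of tested genes had a length. Genes of likeness were ranked on log2(CPM + 0.1).

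Deviations from the genotype means over 8771 genes of at least 5 CPM correlated between libraries of the same number (0.627, 0.484 and 0.480), so the numbers were taken to pair the libraries. However, replicate 3 of Sf3b1 K700E/+ and replicate 2 of Sf3b1 +/+ also correlated (0.249). So did replicate 2 of Sf3b1 K700E/+ and replicate 3 of Sf3b1 +/+ (0.197). Replicates 2 and 3 are thus less clearly paired than replicate 1. The pairing comes from these data and the label numbers. Library pairs within a genotype differed beyond sampling noise. Members and lists were chosen with earlier results of these data known. Named were the members, the lowest adjusted p of each list (at most 4 genes), the 3 genes most like each member, Gata1 and Sf3b1. Gp5, Fyb, Mrtfa, Vipas39, the other Hps genes, the genes with no read and the genes with DSEs were named after their values were seen.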

Additional observations from a re-analysis of the deposited data

How the results depend on the processing

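Gp9 kept its direction under all alternatives and passed with the replicate block (-0.84), with no filter on low counts (-0.78) and without replicate 1 of Sf3b1 +/+, where the range over left-out libraries was -1.07 to -0.46 and adjusted p over all alternatives ran from 2.85e-05 to 0.240. These 3 settings gave 1 lower member (range over left-out libraries 0 to 1) and 2 lower genes in the receptor complex and integrin list (range 1 to 2). Itga2b, Gp1ba and Pf4 passed under no alternative, with adjusted p from 0.0902 to 0.685, 0.445 to 0.940 and 0.124 to 0.476. Leaving out libraries gave -0.068 to 0.23 for Gp1ba. Lower granule genes numbered 3 without replicate 2 or 3 of Sf3b1 +/+ (range 3 to 7). Signalling genes that rose numbered 2 with the replicate block and 0 without replicate 2 or 3 of Sf3b1 K700E/+ or replicate 3 of Sf3b1 +/+ (range 0 to 1). Lower transcription factors numbered 3 without replicate 2 of Sf3b1 K700E/+ or replicate 1 or 3 of Sf3b1 +/+ (range 3 to 5). Platelet receptors that rose numbered 1 without replicate 1 of Sf3b1 +/+ (range 0 to 1). The filter of the study, which drops low genes, left 285 higher and 491 lower DEGs, against 511 and 783. The block changed no other call of a member. Signs turned for Gp5 under RLE (0.0064), no filter (0.015) and DESeq2 (0.011), with a range of -0.26 to 0.21 over left-out libraries. They also turned for Sf3b1 with library totals alone (-0.029) and for Gp6 without replicate 3 of Sf3b1 +/+ (-0.31 to 0.034 over left-out libraries). The log2 path ratio of the Gp9 event classed as intron retention turned without that library (-1.36 to 0.21 over left-out libraries). The cause of these changes was not tested. Scaling by library totals moved the median of all genes by -0.04. Comparisons with libraries before estradiol were not run. Few reads limited Treml1 and the Gp9 events, where 0 to 11 reads of the shorter path stand behind a PSI.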
